A study of Mus musculus with 17 samples.

Results

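The libraries compared here came from kidney cortices of TRACK mice with and without a label of ATF4 knockout: 3 libraries of genotype TRACK and 4 labelled TRACK-ATF4 KO, out of 17 in the series. TRACK is the labels' short name for a transgenic model of kidney cancer. Genes were taken for the comparison when they were protein-coding and had a mean of at least 1 CPM (the gene's counts relative to the total of the library) in either group, which held for 12789 of 21637 protein-coding genes in the table. The other libraries were 5 from WT and 5 from GCERAΔ cortex, GCERAΔ being the ATF4 knockout without the TRACK transgene.

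TRACK mice carry, as background knowledge, a constitutively active HIF1α driven in proximal tubule cells by a γ-glutamyl transferase promoter. Both groups compared here carry that transgene, and the labels add only the ATF4 knockout to the second. For GCERAΔ mice, the study's methods describe floxed ATF4 removed by a tamoxifen-inducible Cre under part of the Ggt1 promoter, so that cells other than proximal tubules would keep the gene. The same methods describe a fast in metabolic cages before tissues were taken, a month after the first tamoxifen injection. They do not name TRACK mice. How ATF4 was removed in the TRACK mice, their age, their sex and the hour at which kidneys were taken are not given in the sources used here. All 7 libraries had Y-linked transcripts (Ddx3y 77.5, 73.9 and 75.2 CPM in TRACK, 68.1, 64.2, 79.2 and 82.0 CPM in labelled KO) and at most 0.710 CPM of Xist.

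ATF4 is a transcription factor of the integrated stress response. Its messenger RNA is translated when eIF2 is phosphorylated by one of several stress kinases, and the protein binds composite C/EBP-ATF sites to raise genes of amino acid synthesis, amino acid transport and redox balance. The kidney proximal tubule reabsorbs glucose, amino acids and phosphate, secretes organic anions and cations, makes glucose, and burns mostly fatty acids. HIF1 raises genes of glycolysis, angiogenesis and mitophagy when oxygen is low.

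Total counts on genes were between 54444611 and 58709786 in TRACK and between 56495462 and 71364561 in the labelled KO libraries. CPM values given here were scaled with edgeR's TMM factors, which lay between 0.968 and 1.04. The share of counts on processed pseudogenes split the 7 libraries into 2 kinds. It was 0.0703% to 0.0784% in all 3 TRACK libraries and in labelled KO replicates 3 and 4, but 0.0380% and 0.0362% in labelled KO replicates 1 and 2. Usage of 173 immunoglobulin V segments, which differs from mouse to mouse, correlated at r = 0.933 between labelled KO replicates 2 and 3, and at 0.457 to 0.756 in the other 20 of the 21 pairs of libraries. These are correlations across segments that share a library, given as a description. Replicates 2 and 3 may therefore be repeat libraries of 1 mouse, and the counts of changed genes are also given with both summed.

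Atf4 (ENSMUSG00000042406, GRCm38 chromosome 15, 80255184 to 80257541), the gene named in the label, had on average a slightly higher level in the labelled KO libraries and was not called. It had 95.8, 82.1 and 79.4 CPM in TRACK and 82.2, 96.2, 96.9 and 106 CPM in the labelled KO libraries, so the groups overlapped. The log2 fold change, here and in all that follows the labelled KO libraries over TRACK, was 0.15 (± 0.11 SE, adjusted p = 0.421 by edgeR). In the 10 libraries without the transgene Atf4 measured 84.8 ± 10.5 CPM for WT and 62.6 ± 9.40 CPM for GCERAΔ (SD, n = 5 libraries each, not TMM-scaled). Counts per gene do not separate the exons of Atf4, and the cortex holds cells that a proximal tubule Cre would leave alone, so the count of this gene could not check the deletion. The knockout libraries are therefore called by their label throughout.

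With edgeR's quasi-likelihood test and an adjusted p (Benjamini-Hochberg over the 13757 genes of any kind tested) of 0.05 or less, 877 of the 12789 protein-coding genes were called changed, or 6.86%. Of these, 325 were higher (2.54% of those tested) and 552 lower (4.32%) in the labelled KO libraries. A call together with a change of at least 2-fold was met by 221 genes (1.73%), 101 higher and 120 lower. The values of the 7 libraries did not overlap between the groups for 2946 genes, or 23%, and for 873 of the 877 called genes. Over the 500 most variable genes the first principal component held 53.5% of the variance, with scores of -21.2 to -13.9 in TRACK and 6.35 to 18.3 in the labelled KO libraries. Labelled KO replicate 4 lay nearest to the TRACK libraries, and without it 1478 genes were called. Leaving out labelled KO replicate 1, 2 or 3 gave 548, 407 and 515 calls, and leaving out TRACK replicate 1, 2 or 3 gave 405, 431 and 728. DESeq2 called 1642 genes (12.8%).

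With labelled KO replicates 2 and 3 summed as 1 library, 524 of 12778 genes were called (4.1%), 193 higher and 331 lower, and 519 of them were among the 877. With only the 5 libraries of the high pseudogene share, a choice made after seeing the data, 236 of 12769 genes were called (1.85%), 82 higher and 154 lower, and 227 of them were among the 877. No called gene that was tested in these fits had the opposite direction. The 3 fits shared 223 calls, 81 higher and 142 lower. Because all TRACK libraries were of 1 kind, library kind could be weighed only within the labelled KO group.

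**Figure D1:**
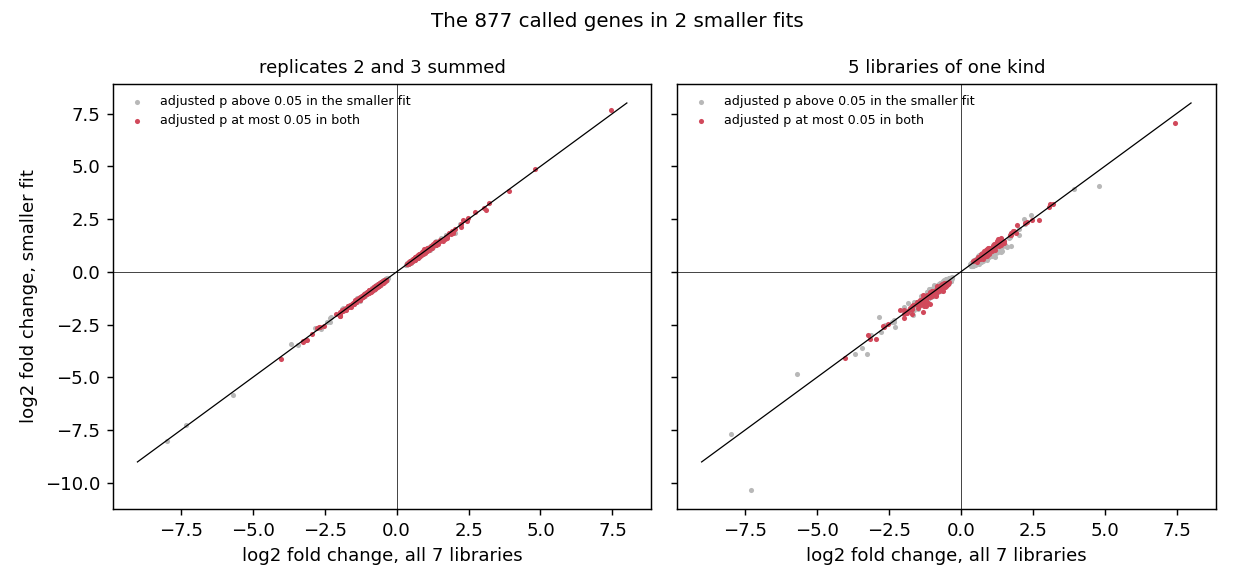
Log2 fold changes of the 877 called protein-coding genes in all 7 libraries (horizontal axis) against those in a smaller fit (vertical axis), with labelled KO replicates 2 and 3 summed on the left and with the 5 libraries of the high pseudogene share on the right; each point is a gene and the line marks equal values. Red points passed the threshold in both fits, 519 on the left and 227 on the right, and points lie along the line in both panels.

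The circadian clock genes had the highest share of called members among the 53 gene lists looked at. In mammals the proteins of Arntl (BMAL1) with Clock or Npas2 switch on genes through E-box elements, among them the Per and Cry genes, whose products then block the pair, while the Nr1d genes repress Arntl and the PAR-bZIP factors Dbp, Tef and Hlf act on D-box elements against the repressor Nfil3. Of 19 clock genes tested, 13 fell and 4 rose, or 89.5% against 6.86% of all genes tested. The list's median log2 fold change was -0.65, where that of all genes tested was 0.01. The count was 12 lower and 4 higher with replicates 2 and 3 summed, and 10 lower and 2 higher in the 5 libraries of one kind.

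The output factor Dbp (ENSMUSG00000059824, chromosome 7, 45705088 to 45710203) had 111, 109 and 97.2 CPM in TRACK and 9.19, 15.4, 13.5 and 9.73 CPM in the labelled KO libraries. All 4 labelled KO values were far under the lowest TRACK value, a log2 fold change of -3.15 (± 0.18 SE, adjusted p = 4.31e-05 by edgeR). Its relative Tef had 399, 393 and 349 CPM in TRACK and 129, 131, 137 and 149.8 CPM in labelled KO, a change of -1.48 (adjusted p = 5.61e-05, edgeR). Hlf, the third of these factors, changed less, by -0.57 (adjusted p = 0.0268, edgeR), and lost the call with replicates 2 and 3 summed (adjusted p = 0.0654, edgeR).

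Among the repressors of the loop, Per2 had 34.4, 34.8 and 32.6 CPM in TRACK and 5.09, 5.33, 4.23 and 6.96 CPM in labelled KO, a log2 fold change of -2.65 (± 0.15 SE, adjusted p = 4.31e-05 by edgeR). Ciart, which encodes a repressor of BMAL1 and CLOCK (ENSMUSG00000038550, chromosome 3, 95878503 to 95882251), had 14.8, 9.67 and 13.2 CPM in TRACK and 0.541, 1.14, 0.904 and 0.561 CPM in labelled KO. Its log2 fold change of -4.01 (± 0.29 SE, adjusted p = 8.61e-05 by edgeR) was the largest of the list in size. Per1 (-1.21), Per3 (-1.28), Cry1 (-1.45) and Cry2 (-1.30) also fell, as did Bhlhe41 (-1.97), Bhlhe40 (-0.58), Nr1d1 (-0.51) and Nr1d2 (-0.65), all on the log2 scale. In each of these 10 genes the highest labelled KO library stayed under the lowest TRACK library.

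The activators moved the other way. Arntl (ENSMUSG00000055116, chromosome 7, 113207465 to 113314126) had 2.34, 2.40 and 4.90 CPM in TRACK and 20.3, 16.0, 14.6 and 20.6 CPM in labelled KO, 5.54-fold higher (log2 fold change 2.47 ± 0.27 SE, adjusted p = 0.00121 by edgeR). Npas2 had 2.72, 2.10 and 3.90 CPM in TRACK and 27.5, 16.6, 12.0 and 20.3 CPM in labelled KO, a change of 2.72 (adjusted p = 0.00135, edgeR). Clock rose by 0.54 from 63.1 ± 1.42 to 91.9 ± 7.16 CPM (SD, n = 3 and 4), and the D-box repressor Nfil3 rose by 0.97 on the log2 scale. The 3 genes Usp2, Noct and Wee1, which are known to be driven by the clock and were chosen after their values were seen, changed by -1.75, -1.69 and -1.40 (adjusted p = 5.89e-05, 0.00437 and 7.54e-05, edgeR). The hour of collection is not given for either group, and a difference in it cannot be told apart from the label.

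**Figure D2:**
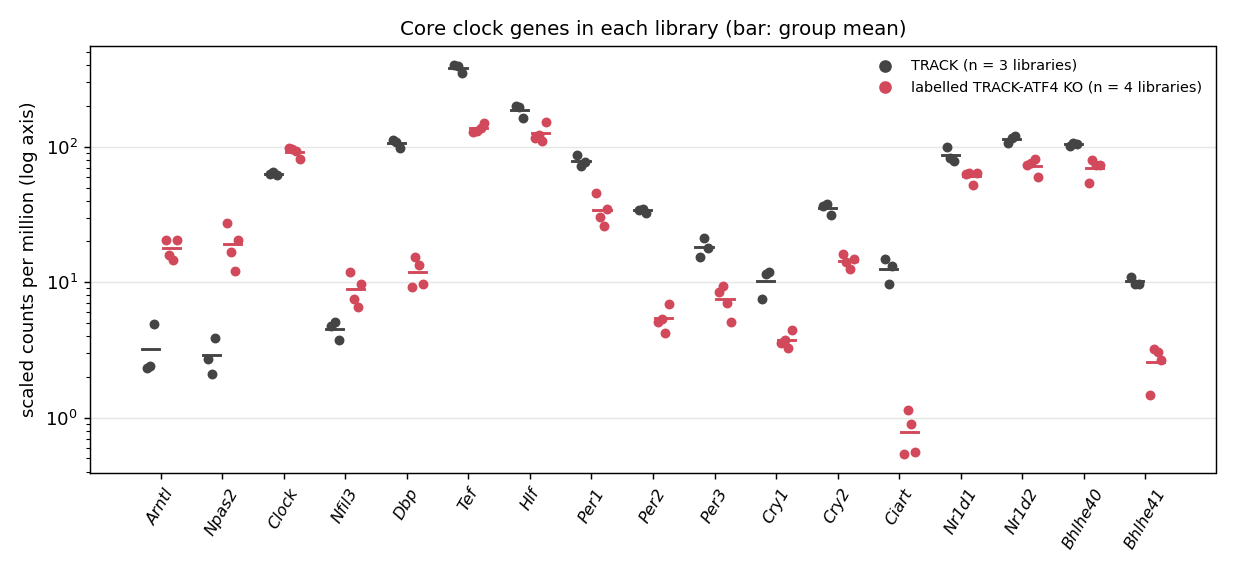
Scaled CPM on a log axis of the 17 called core clock genes in each library, TRACK in grey (n = 3) and labelled TRACK-ATF4 KO in red (n = 4); each point is a library and each bar a group mean. Arntl, Npas2, Clock and Nfil3 lie higher in every labelled KO library, and the other 13 genes lower, with no overlap between the groups.

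E-box sequences stand in the promoters of several of these genes, and those are shown because the activators and the repressors of this loop meet there. The letters CACGTG, which read the same on both strands, were searched in RefSeq promoters (GRCm38.p6, 250 bases before to 50 after a start site). They occurred in 5 of 16 clock genes with a promoter in the table (31.2%) and in 11.7% of the 10207 tested protein-coding genes with one. The glucocorticoid-responsive genes described below had the same share, 5 of 16, with Per1 in both lists. A gene counted if any of its promoters matched. Counted promoter by promoter, the letters occurred in 7.15% of all 32851. Ciart held 3 E-boxes, the first 116 and the last 44 bases before its start site. In the sequences, written 5′ to 3′ on the strand of the gene, capitals mark the E-box, or in Per3 the D-box TTATGTAA, which occurred in 0.938% of all promoters searched on both strands.

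Ciart (chr3:95882179-95882478, minus strand): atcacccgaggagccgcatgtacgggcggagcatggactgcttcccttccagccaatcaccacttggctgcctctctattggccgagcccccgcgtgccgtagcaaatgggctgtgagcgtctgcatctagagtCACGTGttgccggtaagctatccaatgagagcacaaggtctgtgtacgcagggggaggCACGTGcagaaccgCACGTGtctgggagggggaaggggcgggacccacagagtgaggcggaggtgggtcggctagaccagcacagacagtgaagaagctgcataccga

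Per1 (chr11:69098756-69098815, plus strand): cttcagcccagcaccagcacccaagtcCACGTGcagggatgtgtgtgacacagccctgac

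Cry1 (chr10:85185082-85185141, minus strand): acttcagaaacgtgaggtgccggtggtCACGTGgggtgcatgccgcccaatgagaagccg

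Tef (chr15:81802519-81802578, plus strand): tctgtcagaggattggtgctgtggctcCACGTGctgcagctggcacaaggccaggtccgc

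Bhlhe41 (chr6:145865541-145865600, minus strand): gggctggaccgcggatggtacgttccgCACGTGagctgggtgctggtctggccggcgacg

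Per3 (chr4:151044837-151044896, minus strand): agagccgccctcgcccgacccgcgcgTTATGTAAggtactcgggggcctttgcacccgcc

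The genes shown with an E-box fell by 1.21 to 4.01 on the log2 scale in the labelled KO libraries. The same letters occurred in 14.8% of the 427 genes called lower and 8.15% of the 270 called higher that had a promoter in the table. A match describes letters in this window and is not a measured binding site.

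Genes that glucocorticoids induce were lower in the labelled KO libraries. Cortisol and corticosterone act through the glucocorticoid receptor, and Fkbp5, Tsc22d3 (GILZ), Zbtb16, Sgk1 and Per1 are among its best known targets. Of 19 such genes tested, 13 fell and 0 rose (68.4% called), with a median log2 fold change of -0.67. The count was 11 with replicates 2 and 3 summed and 6 in the 5 libraries of one kind. Per1 belongs to both this list and the clock.

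Fkbp5 (ENSMUSG00000024222, chromosome 17, 28399094 to 28517527), a co-chaperone that limits the receptor, had 305, 280.3 and 223 CPM in TRACK and 50.4, 46.1, 46.8 and 108 CPM in labelled KO. Replicate 4 was the highest of the labelled KO libraries but stayed under every TRACK library (log2 fold change -2.10 ± 0.29 SE, adjusted p = 0.00356 by edgeR). Zbtb16, a zinc finger transcription factor, had 18.1, 25.2 and 18.4 CPM in TRACK and 2.91, 4.01, 3.55 and 3.93 CPM in labelled KO, a change of -2.52 (adjusted p = 5.61e-05, edgeR). Tsc22d3, a leucine zipper mediator of glucocorticoid effects, had 91.9, 88.6 and 77.5 CPM in TRACK and 32.8, 28.9, 29.8 and 34.2 CPM in labelled KO, a change of -1.45 (adjusted p = 5.61e-05, edgeR). The libraries of each group lay close together for both genes.

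Sgk1, the kinase that stabilises the epithelial sodium channel, fell by 1.17 on the log2 scale, from 228 ± 42.4 to 101 ± 7.60 CPM (SD, n = 3 and 4). Map3k6 changed by -1.68, Klf9 by -0.59, Klf15 by -0.44 and Nfkbia, the inhibitor of NF-κB, by -0.64. The metallothioneins Mt1 and Mt2, which bind zinc and copper, changed by -0.50 and -0.76. Mt1 did not keep its call with replicates 2 and 3 summed (adjusted p = 0.0865, edgeR). Lcn2, which encodes the injury protein NGAL, had 7.25, 5.82 and 26.1 CPM in TRACK and 3.08, 2.08, 1.74 and 3.66 CPM in labelled KO, with TRACK replicate 3 far above the other 2, and it too lost the call in that fit (adjusted p = 0.0696, edgeR).

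Among all genes called without overlap and with a mean of at least 5 CPM in one group, the largest decreases besides the clock genes and Zbtb16 were in Cfd, Plin4, Tsku, Eif4ebp3, Ugt1a10 and Cidec. Tsku (ENSMUSG00000049580, chromosome 7, 98350668 to 98361328), a secreted leucine-rich proteoglycan, had 34.1, 29.7 and 25.8 CPM in TRACK and 4.58, 4.30, 3.04 and 3.56 CPM in labelled KO, a log2 change of -2.95 (adjusted p = 4.31e-05, edgeR). Plin4, a coat protein of lipid droplets, had 15.7, 11.4 and 16.4 CPM in TRACK and 1.31, 1.21, 2.10 and 1.54 CPM in labelled KO (log2 fold change -3.24, adjusted p = 6.64e-05, edgeR). Eif4ebp3, a repressor of cap-dependent translation, had 15.0, 14.7 and 17.0 CPM in TRACK and 2.69, 1.62, 2.06 and 3.22 CPM in labelled KO (log2 fold change -2.69, adjusted p = 0.000202, edgeR). All 3 were several-fold lower in each labelled KO library than in any TRACK library.

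For the other 3, 1 TRACK library stood far above the rest, and the call was lost with replicates 2 and 3 summed (adjusted p = 0.0866 for Cfd, 0.105 for Cidec and 0.0862 for Ugt1a10, edgeR). Cfd, which encodes adipsin of fat cells, had 52.2, 0.181 and 0.535 CPM in TRACK and 0.0946, 0, 0.171 and 0 CPM in labelled KO. Cidec, a lipid droplet protein, had 16.4, 3.76 and 1.87 CPM in TRACK, and Ugt1a10 had 10.2, 10.2 and 74.1 CPM in TRACK against 5.00, 4.26, 7.46 and 3.77 CPM in labelled KO. The fat cell markers Adipoq (8.16, 0.0723 and 0.100 CPM in TRACK) and Plin1 (3.85, 0.398 and 0.552 CPM in TRACK) were likewise high in TRACK replicate 1 alone. Of the 6 adipocyte markers tested, 4 were called lower with all 7 libraries and 0 with replicates 2 and 3 summed, and the summed level of all 9 listed was 53.4 to 160.9 CPM in TRACK and 45.0 to 73.2 CPM in labelled KO. Fabp4, which endothelial cells also express, held 48.8 to 101 CPM of this sum in TRACK and 43.4 to 72.0 CPM in labelled KO and was not called.

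The largest increases besides Npas2 and Arntl were in Scgb1c1, Lrmda, Wdfy1, Akr1c18, mt-Atp6, Bcat1, Tgfb2 and Sec14l3. Lrmda, a gene of melanocyte differentiation, had 1.02, 0.651 and 0.485 CPM in TRACK and 5.19, 6.54, 6.31 and 5.82 CPM in labelled KO, 8.30-fold higher (log2 fold change 3.05, adjusted p = 0.000502, edgeR). Scgb1c1, a secretoglobin, had 0.944, 0.506 and 1.07 CPM in TRACK and 4.18, 9.06, 10.5 and 5.03 CPM in labelled KO. Wdfy1, an endosomal protein that binds phosphatidylinositol 3-phosphate, had 13.7, 12.7 and 11.5 CPM in TRACK and 75.4, 44.2, 46.8 and 84.7 CPM in labelled KO (log2 fold change 2.32, adjusted p = 0.000719, edgeR). None of these overlapped between the groups.

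Sec14l3, a lipid transfer protein, rose 3.64-fold, from 16.0 ± 2.93 to 58.2 ± 7.84 CPM (SD, n = 3 and 4, adjusted p = 0.000207, edgeR), and the growth factor gene Tgfb2 rose 3.74-fold, from 2.53 ± 0.740 to 9.49 ± 2.22 CPM (adjusted p = 0.00282, edgeR). For mt-Atp6, a mitochondrially encoded subunit of ATP synthase, labelled KO replicates 1, 2 and 3 had 86.9, 115 and 118 CPM, but replicate 4 lay just above TRACK, whose libraries had 20.7, 22.6 and 19.1 CPM. Its call was lost with replicates 2 and 3 summed (adjusted p = 0.0685, edgeR). Of the 13 mitochondrially encoded genes, mt-Nd4l also rose (1.08 on the log2 scale), and 11 were not called.

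Of the genes listed here as known ATF4 targets, 5 were called. Of 14 enzymes of amino acid and one-carbon synthesis, 1 rose and 1 fell (14.3% called, median log2 fold change 0.05). Of 22 stress regulators, 1 rose and 2 fell (13.6% called, median -0.17), both shares beside 6.86% of all genes. None of the 15 genes of the eIF2 pathway or the 21 aminoacyl-tRNA synthetases was called by edgeR.

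Bcat1, the cytosolic aminotransferase of branched-chain amino acids, had 33.7, 42.5 and 11.0 CPM in TRACK and 114, 117, 115 and 125 CPM in labelled KO, with a wide spread in TRACK alone. Its log2 fold change of 2.02 (± 0.36 SE, adjusted p = 0.0108 by edgeR) was upward, as was that of the secreted glycoprotein gene Stc2, which had 19.2, 15.4 and 17.6 CPM in TRACK and 33.4, 34.1, 34.9 and 38.6 CPM in labelled KO (log2 fold change 1.02, adjusted p = 0.000665, edgeR). Herpud1, which serves the degradation of misfolded proteins at the endoplasmic reticulum, had 433, 411 and 410.0 CPM in TRACK and 212, 209, 190.4 and 248 CPM in labelled KO, a change of -0.96 (adjusted p = 0.000850, edgeR). Chac1, the γ-glutamyl cyclotransferase that degrades glutathione, fell by 1.17 and Got1, the cytosolic aspartate aminotransferase, by 0.54 on the log2 scale. Both lost the call with replicates 2 and 3 summed (adjusted p = 0.0603 and 0.0557, edgeR).

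The other targets on these lists did not pass the test. Slc43a1 and Slc36a4, whose promoters the study cites as bound by ATF4 in cultured cells, were counted with the amino acid transporters below. Both fell, and the other carriers cited there are not among the called transporters named below. Asns, asparagine synthetase, had 16.4 to 28.6 CPM in TRACK and 16.8, 16.6, 16.6 and 25.3 CPM in labelled KO, and the groups overlapped (log2 fold change -0.27, adjusted p = 0.449, edgeR). For the serine synthesis enzymes the log2 fold changes were 0.29 for Phgdh and -0.39 for Psat1, and the cystine carrier Slc7a11 had -1.29, with adjusted p of 0.383, 0.327 and 0.182 (edgeR). Trib3 (0.43), Ddit3 (-0.24), Atf3 (-0.63), Atf5 (0.38) and Vldlr (0.14) lay on both sides of 0, and their adjusted p was between 0.134 and 0.367.

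**Figure D3:**
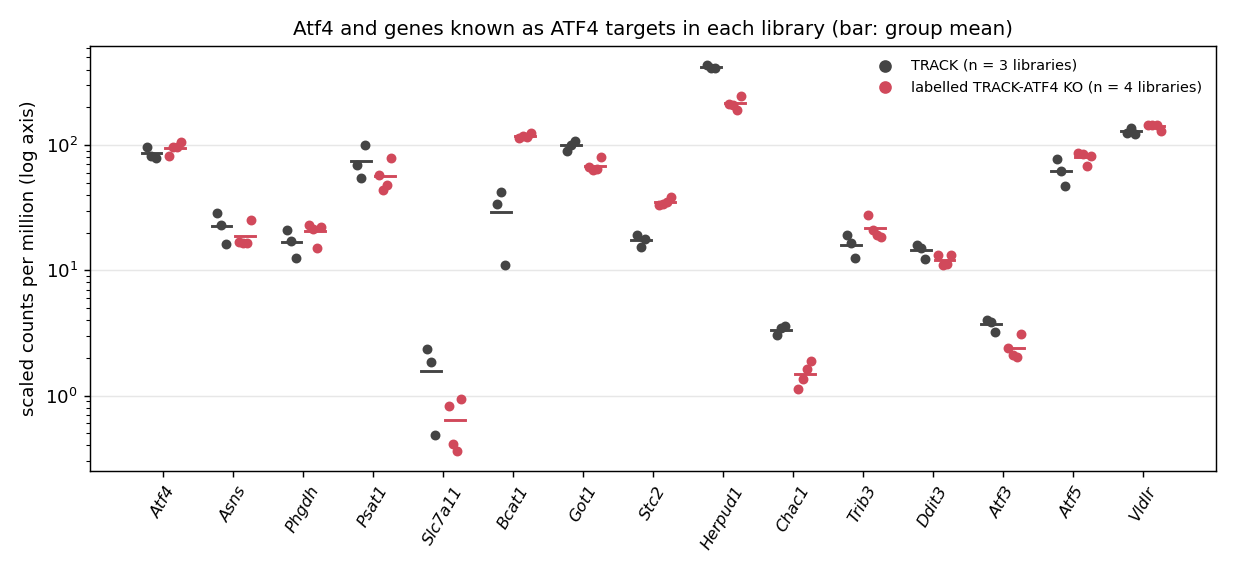
Scaled CPM on a log axis of Atf4 and 14 genes known as its targets in each library, TRACK in grey (n = 3) and labelled TRACK-ATF4 KO in red (n = 4); each point is a library and each bar a group mean. Bcat1 and Stc2 lie higher and Got1, Herpud1 and Chac1 lower without overlap and with a call (for Chac1 and Got1 lost with replicates 2 and 3 summed), Atf3 lies lower without a call, and the groups of the other genes overlap.

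The composite site that ATF4 binds with C/EBP factors carries the core TGATGNAA. This core, searched on both strands, occurred in 12 of 32 target genes tested with a promoter in the table (37.5%) and in 2.76% of the 10207 tested protein-coding genes. Counted promoter by promoter, it occurred in 3.97% of all promoters. It was also found in 3.98% of the genes called lower and 3.33% of those called higher. Sequences are shown for 3 targets that fell and for Asns, which was not called; capitals mark the core on the strand of the gene or its reverse complement.

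Herpud1 (chr8:94386291-94386350, plus strand): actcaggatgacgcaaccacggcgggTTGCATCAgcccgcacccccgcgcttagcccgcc

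Chac1 (chr2:119351023-119351082, plus strand): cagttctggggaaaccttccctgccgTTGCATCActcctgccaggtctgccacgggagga

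Got1 (chr19:43524674-43524733, minus strand): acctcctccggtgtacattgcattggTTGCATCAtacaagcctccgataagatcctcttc

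Asns (chr6:7693199-7693258, minus strand): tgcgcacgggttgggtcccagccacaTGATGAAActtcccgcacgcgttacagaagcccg

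Few chaperones were called, and those called were lower. For the unfolded protein response the share called was near that of all genes. Of 26 genes of the unfolded protein response, Dnajb9 (-0.48) and Hyou1 (-0.38) fell, and of 17 heat shock chaperones Hspb1 (-1.14), Cryab (-0.72) and Hsph1 (-0.43) did, or 7.69% and 17.6% beside 6.86% of all genes. Hyou1 and Hsph1 lost the call with replicates 2 and 3 summed (adjusted p = 0.0927 and 0.0578, edgeR). The small heat shock gene Cryab had 166, 180.0 and 172 CPM in TRACK and 110.0, 99.7, 108 and 102 CPM in labelled KO (adjusted p = 0.00132, edgeR).

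Fatty acid oxidation and glucose production were represented among the decreases. Of 39 genes of fatty acid oxidation and of the nuclear receptor PPARα, 10 fell and 0 rose (25.6% called, median log2 fold change -0.32). The count was 4 with replicates 2 and 3 summed, 2 in the 5 libraries of one kind and 0 with all 17 samples in one fit, so the number of calls depended on these choices. It was 3 without TRACK replicate 1 or without labelled KO replicate 2, and 14 without labelled KO replicate 4. Of 13 genes of gluconeogenesis and fructose handling, 4 fell and the others were not called (30.8% called beside 6.86% of all genes, median -0.42).

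Plin2, which coats lipid droplets, had 539, 419 and 400.0 CPM in TRACK and 204, 202, 197 and 266 CPM in labelled KO (log2 fold change -1.06 ± 0.14 SE, adjusted p = 0.00282 by edgeR). Labelled KO replicate 4 lay nearest to TRACK. Slc25a20, the carnitine-acylcarnitine carrier of mitochondria, had 177, 172 and 194 CPM in TRACK and 94.3, 98.5, 116 and 138 CPM in labelled KO, a change of -0.70 (adjusted p = 0.0144, edgeR). Among the other members that fell were Angptl4 (-0.66), Acaa1b (-0.62), Acaa1a (-0.33), Cpt2 (-0.43), Vnn1 (-0.40) and Cyp4a31 (-0.41). The last 3 and Acaa1a lost the call with replicates 2 and 3 summed, with adjusted p of 0.0642 to 0.0943 (edgeR).

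G6pc, the catalytic subunit that releases free glucose, had 837, 799.5 and 822 CPM in TRACK and 461, 412, 433 and 615 CPM in labelled KO (log2 fold change -0.77, adjusted p = 0.00970, edgeR). Its partner carrier Slc37a4 changed by -0.79 and the glycerol phosphate dehydrogenase Gpd1 by -1.04. These 3 were still called with replicates 2 and 3 summed and none in the 5 libraries of one kind, where the changes lay between -0.89 and -0.63. The fructose carrier Slc2a5 also fell (-0.84), but not with replicates 2 and 3 summed (adjusted p = 0.0815, edgeR). None of the 19 genes of the tricarboxylic acid cycle was called by edgeR.

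In lipid synthesis, Acly (-0.69), Fasn (-0.62) and Hmgcs1 (-0.35) fell and Idi1, which isomerises isopentenyl diphosphate, rose (1.61), out of 29 genes. This was 13.8% called, beside 6.86% of all genes. With replicates 2 and 3 summed Idi1 alone was called, and adjusted p was 0.0808 for Acly, 0.0791 for Fasn and 0.0557 for Hmgcs1 (edgeR). Of 17 apolipoprotein and lipid uptake genes, Apob rose (0.50), and Apoa2 (-1.51), Apoa1 (-1.30), Apod (-2.77), Apoc1 (-1.61) and Pltp (-0.76) fell (35.3% called). Apob, Apoa1 and Apoc1 lost the call with replicates 2 and 3 summed (adjusted p = 0.0770, 0.0772 and 0.0864, edgeR), and none of this list was called in the 5 libraries of one kind. Apoa2, a component of high-density lipoprotein, had 18.4 ± 6.90 CPM in TRACK and 6.44 ± 0.627 CPM in labelled KO (SD, n = 3 and 4). The uncoupling protein gene Ucp2, named after its values were seen, changed from 715 ± 75.4 to 296 ± 58.2 CPM (-1.27 on the log2 scale, adjusted p = 0.00166, edgeR).

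**Figure D4:**
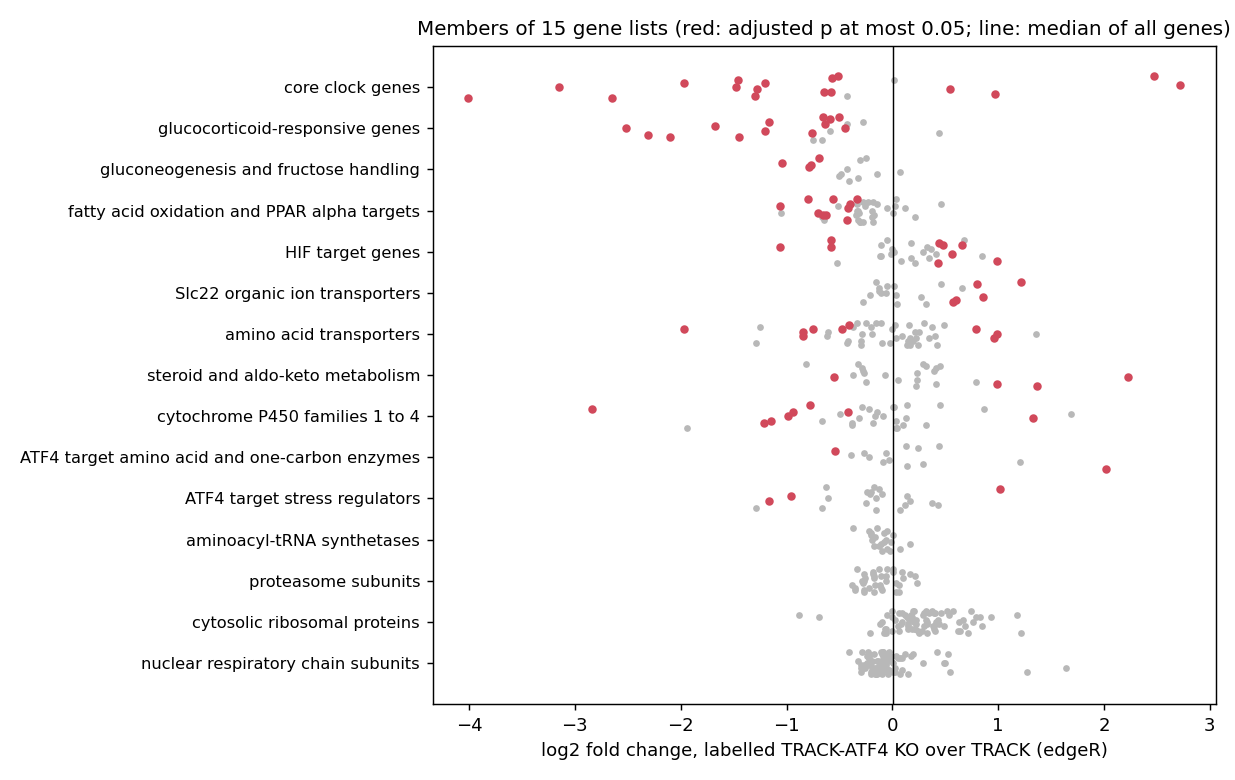
Log2 fold changes, labelled TRACK-ATF4 KO over TRACK, of the tested members of 15 gene lists; each point is a gene, red where its adjusted p (edgeR) was at most 0.05, and the vertical line marks the median of all protein-coding genes tested, 0.01. Red points are most frequent among clock and glucocorticoid-responsive genes, and there are none among aminoacyl-tRNA synthetases, proteasome subunits, cytosolic ribosomal proteins and nuclear respiratory chain subunits.

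HIF targets moved in both directions in the labelled KO libraries. Of 28 tested, 6 rose and 3 fell (32.1% called, median log2 fold change 0.20), and with replicates 2 and 3 summed the counts were 1 and 2. Ndrg1, a stress gene induced by hypoxia, had 2135, 2044 and 2101 CPM in TRACK and 4847, 4048, 3685 and 4080.3 CPM in labelled KO, 1.99-fold higher (log2 fold change 0.99 ± 0.10 SE, adjusted p = 0.000864 by edgeR). Every labelled KO library stood well above every TRACK library. Vegfa, the angiogenic factor, rose by 0.66, the mitophagy receptor gene Bnip3l by 0.56, the membrane carbonic anhydrase Car12 by 0.48, Cited2 by 0.44 and the histone demethylase Kdm3a by 0.43 on the log2 scale. These 5 lost the call with replicates 2 and 3 summed, with adjusted p of 0.0528 to 0.0866 (edgeR). Plin2, Bhlhe40 and Pfkfb3, a kinase that stimulates glycolysis, were the members that fell, Pfkfb3 by 0.58, which lost the call in that fit (adjusted p = 0.0706, edgeR).

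Among transporters, changes were spread over both directions. Of 48 genes tested that were listed as amino acid transporters, 3 rose and 6 fell (18.8% called, median -0.01). Slc7a8 and Slc7a7, basolateral light chains that carry neutral and cationic amino acids, rose: Slc7a8 had 119, 125 and 127 CPM in TRACK and 242, 238, 181 and 196 CPM in labelled KO, and Slc7a7 had 45.6, 52.7 and 71.8 CPM in TRACK and 112, 98.8, 100.3 and 129 CPM in labelled KO. Their log2 fold changes were 0.79 and 0.96 (adjusted p = 0.00475 and 0.00835, edgeR), and Slc6a15, a neutral amino acid carrier, rose by 0.99. The members that fell were Slc43a1 (-1.97), Slc43a3 (-0.84), the mitochondrial glutamate carrier Slc25a22 (-0.84), the taurine carrier Slc6a6 (-0.75), Slc36a4 (-0.47) and the aspartate-glutamate carrier Slc25a13 (-0.41). Slc43a3 was listed beside Slc43a1 but is not established as an amino acid carrier. Slc25a22 and Slc6a6 lost the call with replicates 2 and 3 summed (adjusted p = 0.0649 and 0.0847, edgeR).

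All 5 of the 20 Slc22 organic ion transporters that were called were higher (25%, median of the list 0.04). Slc22a8, the basolateral organic anion transporter OAT3, had 216, 203 and 128 CPM in TRACK and 334, 341, 290.5 and 305 CPM in labelled KO (log2 fold change 0.80, adjusted p = 0.0214, edgeR). Slc22a26 rose by 1.21, Slc22a28 by 0.86, Slc22a22 by 0.60 and Slc22a19 by 0.57 on the log2 scale. These are close paralogs, and how reads shared by such copies were counted is not given in the sources used here. With replicates 2 and 3 summed 4 of the 5 were called, and in the 5 libraries of one kind 0.

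Of 8 Slco organic anion transporters, Slco2b1 (-1.16) and the prostaglandin carrier Slco2a1 (-0.45) fell (25% called beside 6.86% of all genes). Of 31 ABC transporters, the exporter gene Abcc4 rose (0.59), and the sterol exporter Abcg1 (-0.97) and the peroxisomal Abcd3 (-0.37) fell, the last not called with replicates 2 and 3 summed (adjusted p = 0.0840, edgeR). The share of ABC transporters called, 9.68%, was near the 6.86% of all genes. A list of 198 genes of other Slc families, some of them also in the lists of amino acid transporters, proximal tubule identity and lipid or glucose metabolism, held 7 that rose and 22 that fell (14.6% called). The monocarboxylate carriers Slc16a1 and Slc16a3, move lactate and other acids. Slc16a1 had 76.1, 60.4 and 60.1 CPM in TRACK and 141, 127, 140.1 and 222 CPM in labelled KO, and Slc16a3 had 21.0, 20.6 and 15.1 CPM in TRACK and 31.9, 45.7, 46.1 and 41.9 CPM in labelled KO. Every labelled KO library lay above TRACK for both, with log2 fold changes of 1.27 and 1.13 (adjusted p = 0.00537 and 0.00378, edgeR). The multivitamin carrier gene Slc5a6 had 31.9, 31.6 and 30.7 CPM in TRACK and 16.0, 17.2, 14.8 and 14.7 CPM in labelled KO (2.00-fold lower, adjusted p = 0.000315, edgeR), and the mitochondrial pyrimidine nucleotide carrier Slc25a33 fell by 1.27.

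Of 31 genes of proximal tubule identity and endocytosis, 4 fell and 2 rose, or 19.4% called beside 6.86% of all genes, with a median log2 fold change of -0.01. The sodium-hydrogen exchanger gene Slc9a3 (-0.45), the glucose carrier Slc5a1 (-0.60), the fatty acid carrier Slc27a2 (-0.44) and Akap12 (-0.61) fell, and Gatm (1.34) and the phosphate carrier Slc34a3 (0.55) rose. Slc27a2 lost the call with replicates 2 and 3 summed (adjusted p = 0.0655, edgeR). None of the 17 brush border peptidases, Ggt1 among them, was called by edgeR. The summed level of the 10 proximal tubule markers was 5340 to 5987 CPM in TRACK and 6081 to 7055 CPM in labelled KO, so the tissue label held in all 7 libraries.

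In nitrogen metabolism single enzymes changed widely. Glul, glutamine synthetase, had 782, 895 and 1187 CPM in TRACK and 311, 248, 266 and 359 CPM in labelled KO (log2 fold change -1.69 ± 0.16 SE, adjusted p = 0.000644 by edgeR). Gatm, the first enzyme of creatine synthesis, had 104, 105 and 134 CPM in TRACK and 313, 303, 330.4 and 212 CPM in labelled KO, 2.53-fold higher (log2 fold change 1.34, adjusted p = 0.00190, edgeR). Arg2, the mitochondrial arginase, fell by 0.55, and 18 of the 21 genes of arginine, creatine and glutamine metabolism were not called. Arg2 lost the call with replicates 2 and 3 summed (adjusted p = 0.0579, edgeR). Alas1, the rate-limiting enzyme of heme synthesis, had 325, 286 and 363 CPM in TRACK and 119, 89.5, 80.3 and 113 CPM in labelled KO (log2 fold change -1.69, adjusted p = 0.000315, edgeR). Fth1, the ferritin heavy chain, changed by -0.49.

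On the path from tryptophan to NAD, Acmsd, which diverts an intermediate away from NAD, had 40.5, 39.7 and 38.1 CPM in TRACK and 60.9, 64.8, 70.3 and 71.7 CPM in labelled KO (log2 fold change 0.76, adjusted p = 0.00137, edgeR), and Nampt, of NAD salvage, fell by 0.59. Kyat1 fell (-0.57) and Kyat3 rose (0.56), both kynurenine aminotransferases. Gcat (0.36) and Agxt2 (0.33), enzymes of glycine and alanine handling, rose slightly. With replicates 2 and 3 summed Kyat3, Gcat and Agxt2 lost the call (adjusted p = 0.0625, 0.0697 and 0.0572, edgeR).

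Enzymes of drug and steroid metabolism changed in both directions. Of 32 cytochrome P450 genes, 7 fell and 1 rose (25% called, median -0.17). Cyp2d9 had 325, 358 and 332 CPM in TRACK and 153, 142, 128 and 162 CPM in labelled KO (log2 fold change -1.21, adjusted p = 0.000207, edgeR), and Cyp2d22 (-0.98), Cyp2a4 (-1.14), Cyp2a5 (-0.94), Cyp1b1 (-0.78) and Cyp2d10 (-2.84) fell too. Cyp2c23, an arachidonic acid epoxygenase of the kidney, rose, with 8.29, 9.40 and 12.1 CPM in TRACK and 24.4, 24.0, 24.2 and 27.3 CPM in labelled KO (log2 fold change 1.33, adjusted p = 0.000719, edgeR). Cyp2a4 and Cyp2a5 are near-identical copies, so their split is uncertain. Cyp1b1 and Cyp2d10 lost the call with replicates 2 and 3 summed (adjusted p = 0.0648 and 0.0792, edgeR).

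The aldo-keto reductases of steroid metabolism rose as a cluster of 3: Akr1c18, which inactivates progesterone, had 75.1, 99.2 and 28.7 CPM in TRACK and 260.0, 329.7, 404 and 271 CPM in labelled KO (4.67-fold, log2 fold change 2.22, adjusted p = 0.00704, edgeR). Akr1c14 rose by 1.37 and Akr1c21 by 0.99 on the log2 scale, and all 3 were called with replicates 2 and 3 summed and in the 5 libraries of one kind. The lowest TRACK value of all 3 was in replicate 3, and the highest labelled KO value in replicate 3. Hsd17b4, a peroxisomal enzyme of β-oxidation, fell (-0.55). Of the conjugating enzymes, Ugt2b37 (1.12) and Ugt2b38 (0.77) rose and Sult1a1 (-0.95) fell. Among antioxidant genes, the glutathione transferase Gsta2 had 147, 155 and 177 CPM in TRACK and 325, 332, 326 and 229 CPM in labelled KO (log2 fold change 0.92, adjusted p = 0.00523, edgeR), while the epoxide hydrolase Ephx1 fell by 0.84 and Gstt2 by 0.60. The peroxisomal oxidase Hao2 rose (0.79), and Agps (-0.38) and Pex19 (-0.34) fell, Pex19 not with replicates 2 and 3 summed (adjusted p = 0.0579, edgeR).

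Renin and its substrate fell, and some markers of vessel walls and stroma did. Ren1, renin, had 124, 81.7 and 176 CPM in TRACK and 24.3, 26.2, 24.4 and 67.0 CPM in labelled KO, with replicate 4 again nearest to TRACK (log2 fold change -1.84, adjusted p = 0.0204, edgeR, and 0.0627 with replicates 2 and 3 summed). Agt, its substrate angiotensinogen, which proximal tubules make, had 157, 145 and 200.3 CPM in TRACK and 91.0, 93.0, 84.7 and 93.9 CPM in labelled KO (log2 fold change -0.89, adjusted p = 0.00257, edgeR). Of 9 fibroblast and pericyte markers, Rgs5 (2.01-fold lower), Myh11 (log2 fold change -0.87), Acta2 (-0.79) and Dcn (-1.09) fell, and of 8 endothelial markers Flt1 (-0.62) and Plvap (-0.47). These shares were 44.4% and 25%, beside 6.86% of all genes. Dcn lost the call with replicates 2 and 3 summed (adjusted p = 0.0754, edgeR), and the other 11 markers of both lists were not called. The summed fibroblast and pericyte markers were 416 to 599 CPM in TRACK and 273 to 315 CPM in labelled KO, and the summed endothelial markers 931 to 1073 and 708 to 813 CPM. Fewer such cells and less RNA per cell cannot be told apart in cortex, and the part of cell makeup in the lists that follow was not tested. Among markers of other segments and cells, Cldn10 (0.53) and Cldn16 (0.52) of the thick ascending limb, Pvalb (1.06) of the distal convoluted tubule and Avpr2 (0.72) of principal cells rose, and Podxl (-0.55) of podocytes and Mrc1 (-0.80) of macrophages fell, with the other members of their lists not called. With replicates 2 and 3 summed Cldn10, Cldn16 and Mrc1 were not called (adjusted p = 0.0544, 0.0748 and 0.0688, edgeR).

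Of 78 collagen and matrix genes, 11 fell and 4 rose (19.2% called), 63 were not called and the median log2 fold change was -0.05. With replicates 2 and 3 summed 6 were lower and 3 higher. Timp2 (-0.81), an inhibitor of metalloproteinases, elastin (Eln, -1.47), the cross-linking oxidase Lox (-1.76) and Col13a1 (-1.45) fell, and Col6a6 rose (1.75). Lox had 15.6, 16.9 and 42.1 CPM in TRACK and 8.10, 7.23, 7.90 and 6.09 CPM in labelled KO, and TRACK replicate 3 was the highest library. Of 26 complement and coagulation genes 5 fell and 1 rose (23.1% called beside 6.86% of all genes), the latter tissue factor (F3, 0.54). Among those that fell were Cfd, high in TRACK replicate 1 alone, the plasminogen activator Plat (-0.99), thrombomodulin (Thbd, -0.68) and the C1 inhibitor Serping1 (-0.86). With replicates 2 and 3 summed 2 members were called, Plat and Thbd. The immediate early genes Jun (-0.52), Zfp36 (-0.55), Klf4 (-0.51) and Klf2 (-0.45) fell, of 19 tested (21.1% called). Klf2 lost the call with replicates 2 and 3 summed (adjusted p = 0.0567, edgeR).

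Markers of tubule injury were called in both directions. Of 26 tested, 2 rose and 6 fell (30.8% called). Havcr1, which encodes KIM-1, had 21.0, 12.6 and 22.4 CPM in TRACK and 36.1, 32.4, 35.5 and 26.8 CPM in labelled KO (log2 fold change 0.81, adjusted p = 0.0336, edgeR), and Dcdc2a rose by 0.91. Lcn2, Krt20 (-1.96), Vcam1 (-0.58), Vim (-0.51), Serpina3n (-3.26) and Plin2 fell. Havcr1, Lcn2 and Vcam1 lost the call with replicates 2 and 3 summed (adjusted p = 0.0794, 0.0696 and 0.0705, edgeR).

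Several large groups held no called gene by edgeR at the threshold used: 78 cytosolic ribosomal proteins (median log2 fold change 0.26), 81 nuclear respiratory chain subunits (-0.09), 74 mitochondrial ribosomal proteins (0.02), 37 proteasome subunits (-0.13) and 22 enzymes of methionine and betaine metabolism (-0.12). The members with an unadjusted p under 0.05 numbered 36, 15, 6, 10 and 8 in these 5 lists, where the share over all genes tested was 25.1%. It was 46.2% for cytosolic ribosomal proteins and 8.11% for mitochondrial ribosomal proteins. DESeq2 called 14, 5, 3, 4 and 2 members, beside 12.8% of all genes tested. For the eIF2 pathway and the aminoacyl-tRNA synthetases these counts were 5 and 1 of unadjusted p under 0.05, and 1 each by DESeq2. They were 5 and 3 for the tricarboxylic acid cycle, 2 and 1 for the 12 genes of the pentose phosphate and glycogen paths, and 2 and 0 for the brush border peptidases. On simulated counts with the same means and spread, 67 of 13757 genes were changed 1.5-fold, 67 changed 2-fold and 66 changed 4-fold. Of these 29.9%, 71.6% and 92.4% were called, so that 1.5-fold changes were mostly missed in that setting. Of 13557 unchanged genes in the same simulation, 6 were called. Smaller changes, a larger share of changed genes, repeat libraries and the kinds of library were not simulated. Of 29 interferon genes Gbp7 alone was called by edgeR (0.87), and of 32 cell cycle genes Mcm5 (-0.86) and Mcm6 (-0.64) fell. These shares were 3.45% and 6.25%, beside 6.86% of all genes tested. Of 30 lysosome and autophagy genes Psap (-0.53), Ctsd (-0.35) and Ctsb (-0.32) fell (10% called), and none of them was called with replicates 2 and 3 summed. Of 24 genes known to be higher in male kidney 4 were called (16.7%), and of 21 known to be higher in female kidney 3 (14.3%), in both directions within each list.

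The same label was compared between the backgrounds by testing, over all 17 libraries, whether the change from TRACK to labelled KO differed from that from WT to GCERAΔ. The difference was called for 3165 of 12938 protein-coding genes, or 24.5%. The 4 groups share no library. The study's methods give fewer than 5 mice per cohort for sequencing, so libraries of a group may share a mouse. The test and the SDs treat libraries as independent. WT libraries had 242 ± 112 CPM of Xist and no Ddx3y, whereas GCERAΔ libraries had 57.5 ± 6.61 CPM of Ddx3y (SD, n = 5 libraries each, not TMM-scaled). A difference of sex therefore stands in one contrast and not in the other, and it cannot be told apart from the label there. Among the genes of the largest differences were the Y-linked Ddx3y, Eif2s3y and Uty, Slco1a1, with 0.0201 ± 0.0450 CPM for WT against 314 ± 41.1 CPM for GCERAΔ, and Cyp2j13, with 0.175 ± 0.197 and 258 ± 80.7 CPM. In the other direction, Ugt1a2 had 576 ± 41.4 CPM for WT against 3.60 ± 4.74 CPM for GCERAΔ, Bhmt 106 ± 35.0 and 5.63 ± 1.90 CPM, Slc17a2 12.7 ± 4.74 and 0.308 ± 0.134 CPM, Ly6f 13.2 ± 3.56 and 0.484 ± 0.243 CPM, and Myh1, a skeletal muscle myosin, 5.27 ± 2.88 and 0.00336 ± 0.00752 CPM. Of these, Ly6f alone was called in TRACK (0.63, adjusted p = 0.0304, edgeR, and 0.0740 with replicates 2 and 3 summed), and Myh1 was near 0 in all 7 TRACK and labelled KO libraries.

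The difference between the backgrounds was called for 17 of the 19 clock genes and 14 of the 19 glucocorticoid-responsive genes, beside 24.5% of all genes. Dbp had 51.1 ± 8.58 CPM in WT, 109.7 ± 24.1 in GCERAΔ, 104 ± 4.83 in TRACK and 12.1 ± 2.85 in labelled KO, all CPM not TMM-scaled. Its log2 changes were 1.16 without and -3.15 with the transgene, a difference of -4.32 (± 0.26 SE, adjusted p = 5.66e-09 by edgeR). Per2 changed by 1.48 without the transgene and Arntl by -1.41, in both cases opposite to the TRACK background, with differences of -4.14 and 3.87 (adjusted p = 3.52e-11 and 4.92e-07, edgeR). Stc2 (1.83) and Herpud1 (-1.08) among the ATF4 targets differed between the backgrounds too, whereas for Bcat1, which rose in both (3.53 and 2.02), the difference of -1.51 did not pass (adjusted p = 0.184, edgeR).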

How the data were processed

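RNA from mouse kidney cortices was sequenced in 17 libraries, and the deposited table held raw counts per gene. The authors demultiplexed reads with bcl2fastq 2.20, used cutadapt for trimming, STAR for alignment to the GRCm38 genome and HTSeq for counting reads on genes, per the submitters' processing notes and the study's methods; the annotation release, strand setting and treatment of reads with several matches are not given in the sources used here. Gene positions came from a GENCODE annotation of GRCm38. Counts of 3 TRACK and 4 TRACK-ATF4 KO libraries were compared with edgeR 4.0.16 (R 4.3.3, TMM, quasi-likelihood test) over 13757 genes with a mean CPM of at least 1 in either group, Benjamini-Hochberg adjusted, called at 0.05. The exact permutation test of 3 against 4 cannot go under p = 0.0571 and was not used. The comparison between backgrounds was the interaction of 4 group means over 17 libraries.

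The groups, the 53 gene lists and the genes were chosen with earlier results of these data known. Genes named were the 10 largest increases and decreases without overlap at a mean of at least 5 CPM, up to 6 called members per list, called markers and the largest differences between backgrounds. Further members of the clock, glucocorticoid, fatty acid and other lists, ATF4 targets without a call, Usp2, Noct, Wee1 and Ucp2 were named after their values were seen. Alternatives were DESeq2 1.42.0, RLE scaling, other minimums, a replicate block, summed or left-out libraries and library kind, the last added after seeing the data, as were the E-box and D-box searches. Some members of the lists are counted but not reported by name here. The fit was tested on simulated counts.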

Additional observations from a re-analysis of the deposited data

Results flagged for a closer look

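For 135 of 192 named genes, the change from TRACK to the labelled KO libraries differed from that from WT to GCERAΔ. The criterion was an adjusted p of 0.05 or less in the interaction test over 17 libraries (edgeR), which 24.5% of all protein-coding genes tested met. Some of the 192 were named for the largest differences in this test and others after their values were seen. Their share therefore follows in part from how they were chosen. The differences that follow are in log2 units, the change in TRACK minus the other, and difference of sex and library kind within the WT and GCERAΔ groups cannot be told apart from them. The test treats libraries as independent, which may not hold where libraries share a mouse. Among clock genes the differences were 3.87 for Npas2, 3.87 for Arntl, 2.55 for Nfil3 and 0.61 for Clock on the positive side. On the negative side they were -5.94 for Ciart, -4.32 for Dbp, -4.14 for Per2, -2.59 for Per3, -2.37 for Tef, -2.10 for Cry2, -1.85 for Bhlhe41, -1.60 for Cry1, -1.49 for Per1, -1.21 for Nr1d2 and -1.10 for Hlf. Among glucocorticoid-responsive genes they were -2.76 for Fkbp5, -2.12 for Tsc22d3, -1.99 for Zbtb16 and -1.41 for Map3k6. Atf4 itself differed by 0.52, and its targets by 1.83 for Stc2, -1.08 for Herpud1 and -0.38 for Got1. The HIF target Ndrg1 differed by 1.39, Glul by -1.57 and Akr1c18 by 3.57. Among the largest differences were 7.63 for Ugt1a2, 5.43 for Bhmt, 5.32 for Ly6f, 5.01 for Slc17a2, -14.15 for Slco1a1 and -10.75 for Cyp2j13. Slco1a1 and Cyp2j13 were near 0 in WT, so the fitted size of their differences depends on the prior count. The differences of Bhmt and Ly6f had adjusted p of 1.09e-06 and 6.63e-08 (edgeR).

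Among the labelled KO libraries, 1 library stood apart from the other 3 by Dixon's criterion in 16 of 192 genes, where chance gives about 1 in 20 groups. Replicate 4 was the library apart in 14 of them. It was the highest for Fkbp5 (108 CPM, the next library 50.4), Ren1 (67.0, next 26.2), Plin2 (266), Slc37a4 (355), Acly (288), Slc2a5 (254) and Plat (66.9), all genes that fell, where it lay nearest to TRACK. It was also the highest for Slc16a1 (222) and Cyp2c23 (27.3), which rose, for Cyp2d10 (0.994), which fell, and for Asns (25.3) and Slco1a1 (242), which were not called. It was the lowest for Gsta2 (229) and Vldlr (129). Replicate 3 was the highest for Vcam1 (13.1) and the lowest for Nr1d1 (52.3), all in CPM. The cause was not tested.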

How the results depend on the processing

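The 877 called genes became 1642 with DESeq2 (727 higher, 915 lower), 524 with labelled KO replicates 2 and 3 summed (193 and 331), 236 with only the libraries of the high pseudogene share (82 and 154) and 468 with library kind as a covariate (161 and 307). TRACK does not have both kinds, so the covariate was estimated within the labelled KO libraries alone. It was an alternative added after seeing the data. In the last 2 fits 108 and 145 genes changed at least 2-fold, against 221. Called genes of the fatty acid oxidation list went from 10 to 18 with DESeq2, 4 summed, 6 with the replicate block, 0 with all 17 samples in one fit, 2 with the high-share libraries and 3 with the covariate. The glucocorticoid-responsive list went from 13 to 6 with the high-share libraries.

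Leaving out 1 library at a time gave 405 to 1478 calls, 136 to 659 higher, 259 to 819 lower and 139 to 294 at least 2-fold changed. The lists held 13 to 18 calls (clock), 3 to 14 (fatty acid oxidation) and 9 to 14 (glucocorticoid-responsive), and the difference between the backgrounds 2266 to 3442. The share of calls that were higher was 37.1%, and 42% with no minimum, where 1137 genes were called. With RLE size factors 886 genes were called, and with a minimum of FPKM 819.

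The replicate block gave 755 calls (45.8% higher), 548 of them among the 877. The sources used here do not state that the replicate numbers pair mice between the groups. Deviations of libraries of the same number correlated at -0.0076, -0.00663 and 0.0158, and those of unlike number at -0.147 to 0.147. No called gene changed direction under any setting run. Of genes that were not called, Slc17a2 turned to 0.14 with the replicate block and lay between -0.61 and 0.21 with 1 library left out. The same range was -0.15 to 1.5 for Ugt1a2, -0.72 to 0.046 for Slco1a1 and -0.39 to 0.025 for Cyp2j13, which also turned to 0.022 with the high-share libraries and 0.023 with the covariate. Where no cause shows in the alternative itself, the cause was not tested.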
